A study of Bos taurus and Bos indicus x Bos taurus with 938 samples.

Results

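Single blastomeres of bovine embryos fertilised in vitro were compared at the 4-cell and 8-cell stage among libraries whose titles carry the prefix 15287. The titles do not say what the prefix stands for. Members were the blastomeres labelled with cell number 4 or 8 under that prefix whose library could be tied to a column of the deposited table. They comprise 20 blastomeres from 5 4-cell embryos and, from 14 8-cell embryos, all but 7 of 110 labelled blastomeres. Together they make up 15.02% of the blastomeres in the table and 60.9% of those with this prefix. The link between columns and titles was inferred from the numbering, with the column number less 1500 read as the title's number, and no source used here states it. Links shifted by 1 title were tried for the summary values and the segments, not for regions and bins.

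All 19 embryos share their origin. Oocytes came from abattoir ovaries and were matured and fertilised in vitro with frozen and thawed semen, and the labels give the organism as Bos indicus x Bos taurus. No treatment or genotype separates the groups, which differ in the labelled cell number. Each embryo was taken apart into single blastomeres, each of which went into its own tube for ATAC-seq with its embryo recorded. In ATAC-seq the transposase Tn5 cuts and tags DNA that is not shielded by nucleosomes, and the labels say that the enzyme amount was set by batch. Embryos are given short names here, in the order of the numbers in their labels. F1 to F5 are the 4-cell embryos of blastomere_550, blastomere_552, blastomere_588, blastomere_589 and blastomere_590, with 4 blastomeres each. E1 to E13 are the 8-cell embryos of blastomere_521, blastomere_525, blastomere_526, blastomere_584, blastomere_585, blastomere_610, blastomere_611, blastomere_612, blastomere_614, blastomere_615, blastomere_616, blastomere_619 and blastomere_621, and E14 is an embryo whose label holds no number. Of these, 8 had 8 blastomeres, 4 had 7, 1 had 6 and 1 had 5. E14 was treated as 1 embryo because its 8 blastomeres are lettered A to H. A blastomere is named by its embryo and the letter of its label, as in F5-A.

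Cleavage divides the fertilised egg without growth, so that each round of division gives smaller cells. In cattle the embryo's own genome becomes broadly active around the 8-cell stage, after a period in which maternal RNA directs development. Cleavage divisions of embryos made in vitro are also known to be error-prone, and sister blastomeres can receive unequal sets of chromosomes. These statements are background and were not tested here.

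Each value in the table is 0 or 1 for 1 numbered region in 1 blastomere and was read as closed or open. The regions have no coordinates and no gene names in the table, so no gene, promoter or sequence can be attached to a region below. The table gives no read depth; the share of regions called open in a blastomere is used in its place. A missing call can come from closed chromatin, from few recovered fragments or from absent DNA, and binary calls cannot tell these apart.

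The first question was how many regions were open in a blastomere at each stage. Among 4-cell embryos, the share of all regions called open was 0.332, 0.434, 3.63 and 4.58% in blastomeres A to D of F1. In F2 it was 0.215, 0.265, 5.08 and 7.30%, and in F4 it was 1.83, 2.67, 0.323 and 0.354%. In these 3 embryos A and B lay on one side and C and D on the other, with a ratio between the pairs' geometric means of 10.7, 25.5 and 6.55. F3 was even, at 6.53, 10.2, 11.8 and 7.22%. F5 was at 42.7, 2.66, 5.49 and 4.38%, and its blastomere A, with 129163 open calls, held the most calls of any column. Of 11 4-cell embryos with all of A to D under the other in vitro fertilisation prefix, 15286, 5 had such separated pairs and 1 had a ratio over 5. The labels do not say what the letters stand for.

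Most 8-cell embryos were more even. E1 ranged from 2.30 to 3.21% of regions over 8 blastomeres and E5 from 3.00 to 4.88%. E11 had the widest range, from 0.202 to 13.1% over 7 blastomeres. In E10, 7 of 8 blastomeres lay between 0.371 and 1.25% and blastomere B was at 4.22%. The spread of calls within an embryo, as the SD of log10 calls, was 0.508 ± 0.252 (SD, n = 5) in 4-cell and 0.275 ± 0.189 (SD, n = 14) in 8-cell embryos. The difference was -0.23 (two-sided exact permutation test over embryos, p = 0.0423, adjusted p = 0.180 over the 7 summary values of the comparison), and the groups overlapped.

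**Figure D1:**
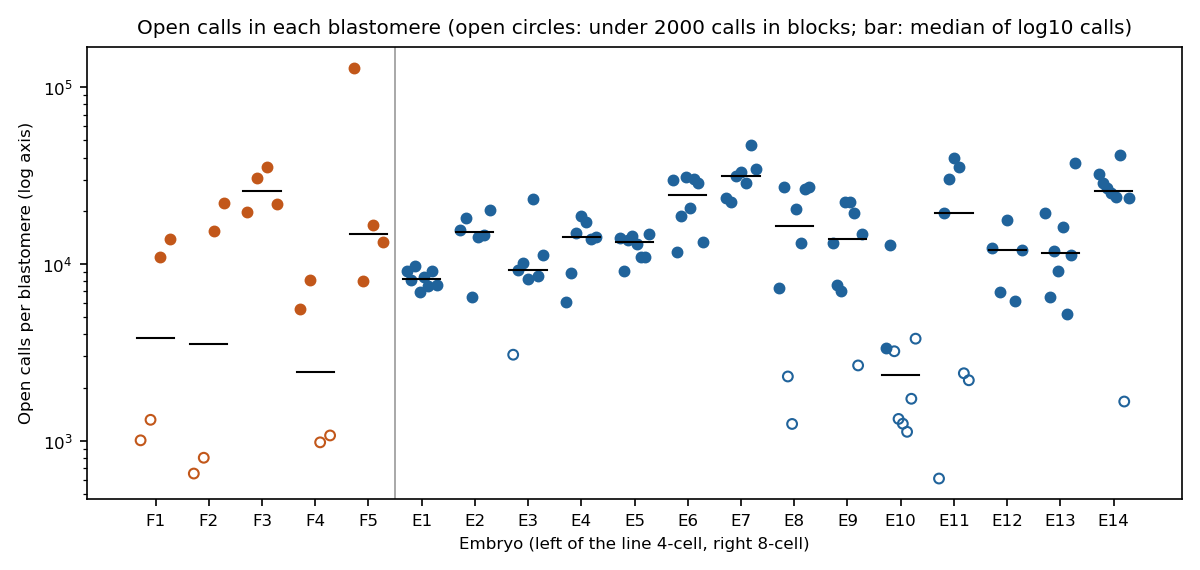
Open calls in every blastomere (log axis) for each embryo, with 4-cell embryos F1 to F5 left of the line and 8-cell embryos E1 to E14 right of it; bars mark the median of log10 calls in an embryo and open circles the blastomeres with under 2000 calls in the 29 blocks. In F1, F2 and F4 a pair of blastomeres lies far below the other pair, and the highest point is F5-A at 129163 calls.

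The embryo medians, taken over log10 calls, had a geometric mean of 6602 at the 4-cell stage and 13457 at the 8-cell stage, a 2.04-fold ratio. On the log10 scale the means were 3.82 ± 0.447 (SD, n = 5) and 4.13 ± 0.274 (SD, n = 14), which was not past the threshold (exact permutation p = 0.0772, adjusted p = 0.180). Without F3 the difference was 0.458 for the medians (adjusted p = 0.0480, exact permutation test) and -0.33 for the spread (adjusted p = 0.0366), both past the threshold. With only the blastomeres that had at least 2000 calls in the 29 blocks described next, a choice made after seeing the data, the differences were 0.0377 (p = 0.745) and -0.014 (p = 0.865, both exact permutation tests). That choice leaves out 6 4-cell and 14 8-cell libraries by their number of block calls, a large part of the outcome itself. The narrower differences therefore describe the libraries kept and are no independent check of the main result. With the mean over blastomeres in place of the median, the difference was 0.195 (exact permutation p = 0.257). With columns shifted by 1 title the difference in medians was 0.181 or 0.0898, and that in spread -0.23 or -0.26.

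Those 20 libraries also differed in where their calls lay. Calls per region were far denser in 1 stretch of the numbering, regions 274001 to 278600, which took 8.67% of all calls in the table and is called the dense stretch here. In 4-cell libraries with under 2000 block calls it took a median 35.0% of calls (range 7.98 to 39.5%, n = 6), against 8.49% (range 2.35 to 20.9%, n = 14) in the other 4-cell libraries. At the 8-cell stage the medians were 39.9% (range 12.2 to 52.3%, n = 14) and 7.79% (range 2.95 to 32.01%, n = 89). Block calls leave out the dense stretch, so a high share there itself moves a library below 2000, and the contrast is partly set by the split. In total calls, 8-cell libraries below the split reached 3778, and the others began at 3325. Not every library with few block calls was high in the dense stretch. F2-A, F2-B and E14-G were at 0.541, 0.879 and 0.906 relative to the reference described next. The median of libraries with few block calls was 4.08 at the 4-cell and 5.10 at the 8-cell stage.

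The region numbering falls into stretches whose calls rise and fall together across blastomeres. From 330 blastomeres outside both groups, 29 blocks of 4700 to 17000 regions were delimited, with a median correlation inside a block of 0.852 and at most 0.250 across a boundary. The blocks hold 274000 regions, which is 90.5% of all. Whether a block is a chromosome was not tested, since the numbering has no coordinates. For each blastomere with at least 2000 calls in the blocks, relative coverage is the block's share of the blastomere's block calls divided by its median share in prefix 15286, so that 1 means the reference share. Because shares sum to a whole, a high block lowers the others in the same blastomere. A block under 0.1 is called absent. This could be assessed in 14 4-cell blastomeres of 5 embryos and 89 8-cell blastomeres of 14 embryos.

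**Figure D2:**
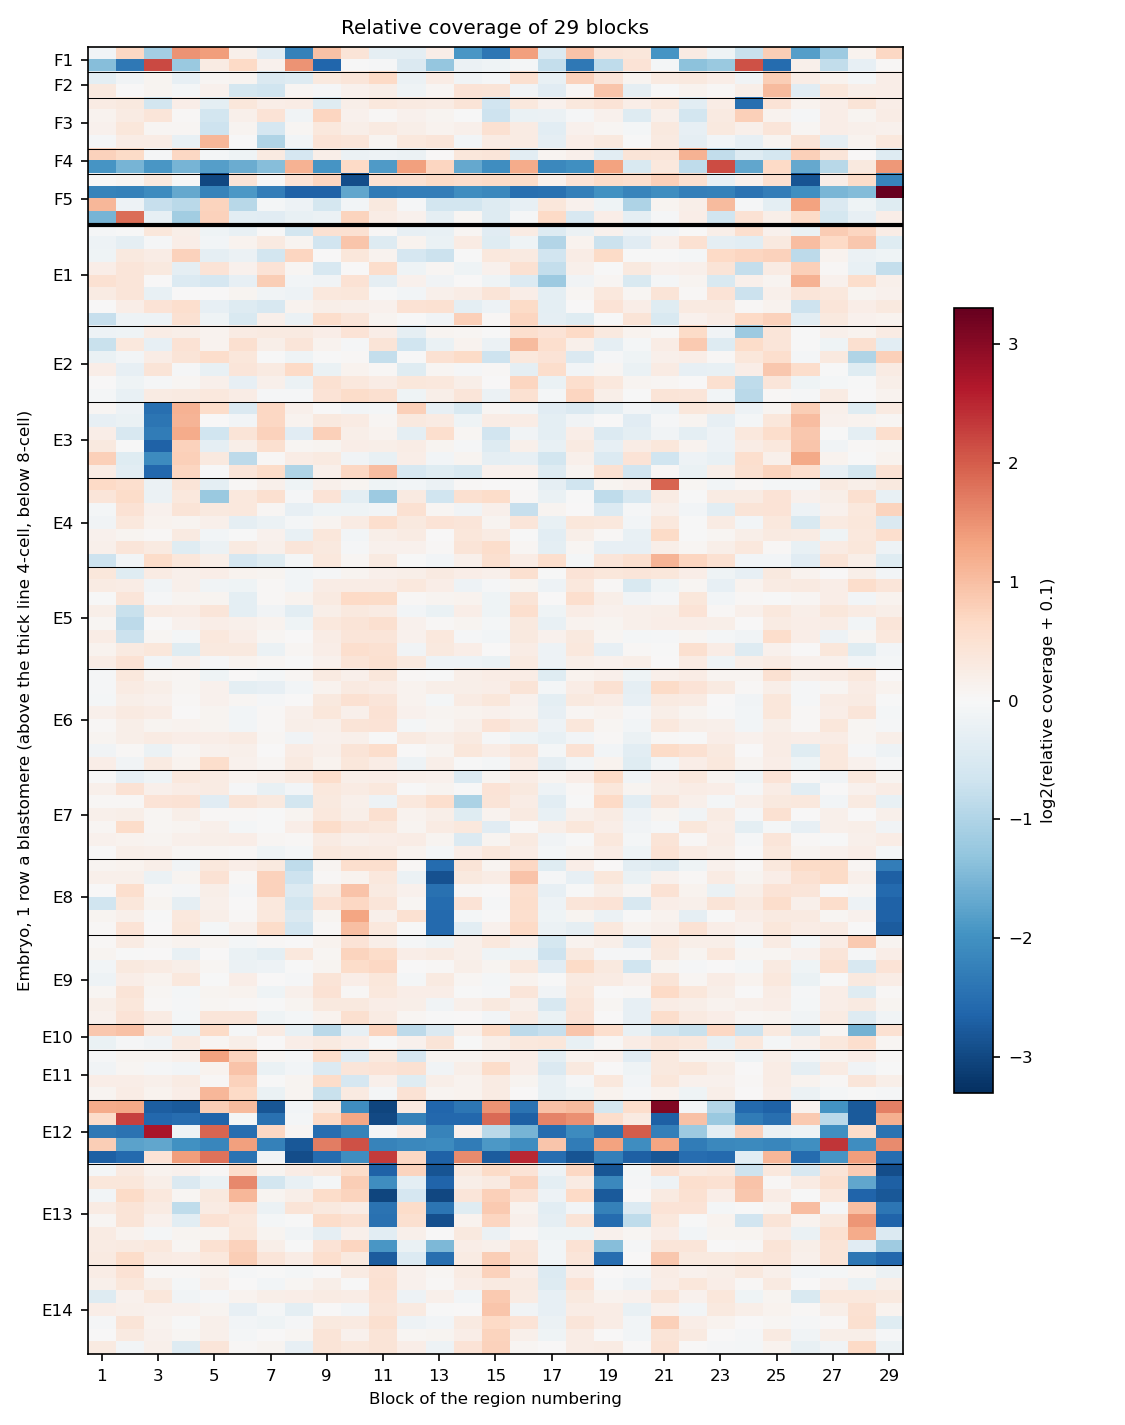
Relative coverage of the 29 blocks (columns) in each assessed blastomere (rows), as log2(relative coverage + 0.1), with blue below and red above the reference; thin lines part embryos and the thick line parts 4-cell from 8-cell. Blue columns run through E3, E8 and E13, while rows of F1, F4, F5 and E12 differ from their sisters.

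At both stages most blocks were near the reference. Values from 0.5 to 1.5 made up 71.9% of 406 values at the 4-cell stage and 88.7% of 2581 at the 8-cell stage. Values under 0.1 made up 3.69% and 3.18%, and values over 1.5 made up 9.11% and 5.11%. Blocks were absent in 5 of 14 4-cell blastomeres, from 3 of 5 embryos, and in 21 of 89 8-cell blastomeres, from 4 of 14 embryos. The 5 include F5-B, in which block 29 at 24.8 lowers the shares of all other blocks. Per embryo, the percent of assessed blastomeres lacking a block was 35.0 ± 41.8 (SD, n = 5) and 24.4 ± 40.9 (SD, n = 14; exact permutation p = 0.609, adjusted p = 0.853).

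At both stages a block under 0.1 in 1 blastomere was seldom under 0.1 in all assessed sisters. Of the combinations of embryo and block with an absence, 15 of 15 at the 4-cell and 33 of 34 at the 8-cell stage were under 0.1 in some and at 0.1 or more in other assessed blastomeres. A sister was over 1.5 in 8 of the 15 and in 24 of the 33. Of the 15, 6 came from F5-B, where no block but block 29 exceeded 0.273. Of the 34, 26 came from E12. Outside E12, the only 8-cell combination with a sister over 1.5 was block 28 of E13. The 33 include block 3 of E3, block 29 of E8 and block 13 of E12. These stayed at or below 0.139, 0.105 and 0.138 in every assessed blastomere. Among 4-cell embryos, F1 is the clearest case of sisters that differ, with C and D assessed. Block 9 was 1.84 in C and 0.0622 in D, block 18 was 1.80 and 0.0954, and block 25 was 1.65 and 0.0724. The reverse held for block 3, at 0.359 in C and 4.43 in D, and block 8, at 0.112 and 2.67. The 2 blastomeres were opposite over much of the numbering, with a correlation of log2 coverage over 29 blocks of -0.47.

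F5 held the most extreme blastomere. In F5-B block 29 had a relative coverage of 24.8 and no other block exceeded 0.273, so that its calls in the blocks lay mostly in 1 of them. Its sister F5-A, the library with 129163 calls, was at 0.0250 in block 5, 0.0320 in block 10 and 0.0384 in block 26, and at 0.122 in block 29. In F5-C and F5-D these 3 blocks were present, with block 26 at 2.40 and 1.46. Block 2 was 3.48 in F5-D against 0.787 in F5-C. In F4, blastomere B was under 0.5 in most blocks and at 4.33 in block 23, while F4-A lay between 0.472 and 2.11 in every block. F3 lacked 1 block in 1 blastomere, block 24 at 0.0784 in F3-A and at 1.62 in F3-B. F2 had no block under 0.5 in either assessed blastomere.

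In 3 of the 4 8-cell embryos with absent blocks, E3, E8 and E13, blocks were low in most sisters. In E3 block 3 lay between 0.0561 and 0.139 in all 6 assessed blastomeres, under 0.1 in 4 of them, and block 4 lay between 1.53 and 2.24. In E8 block 13 was absent in 6 of 6, at 0.0373 to 0.0808, and block 29 in 5 of 6, at 0.0502 to 0.105. Block 13 of E8 was the 1 combination of the comparison absent in every assessed blastomere of its embryo.

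E13 combined blocks shared by nearly all sisters with a block that split them. Blocks 11, 13, 19 and 29 were each under 0.5 in 7 of 8 blastomeres. Blastomere E13-F was the exception, between 0.634 and 1.00 in these 4 blocks, with 2645 block calls and a dense-stretch coverage of 3.61. Block 28 was 1.68, 1.90, 2.63 and 2.25 in A, D, E and F, against 0.206, 0.0612 and 0.0920 in B, C and H and 0.670 in G.

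E12 was unlike the other 8-cell embryos. Among its 5 blastomeres, 26 of 29 blocks were absent in at least 1 and none in all. Blastomeres A and B resembled each other (r = 0.61 over 29 blocks), as did C and G (r = 0.54), while A and G (r = -0.64) and B and G (r = -0.77) were opposite. Block 21 was 8.24 in A and 0.0405 in G, and block 3 was 6.33 in C and 0.0530 in A. Block 13 was low in all 5, from 0.0573 to 0.138. It was thus low in most assessed blastomeres of 3 8-cell embryos, E8, E12 and E13.

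Milder shifts appeared in embryos that lacked no block. In E11 block 5 was 2.41 in B and 2.03 in F but 0.981 in C and 0.928 in E. Block 9 grouped them otherwise, at 1.40 in B and 1.42 in E against 0.637 in C and 0.502 in F. In E2 block 24 was 0.334, 0.456 and 0.438 in A, E and F, against 1.43, 1.20 and 1.06 in B, C and D. In E14 block 15 lay between 1.13 and 1.79 in all 7 assessed blastomeres.

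**Figure D3:**
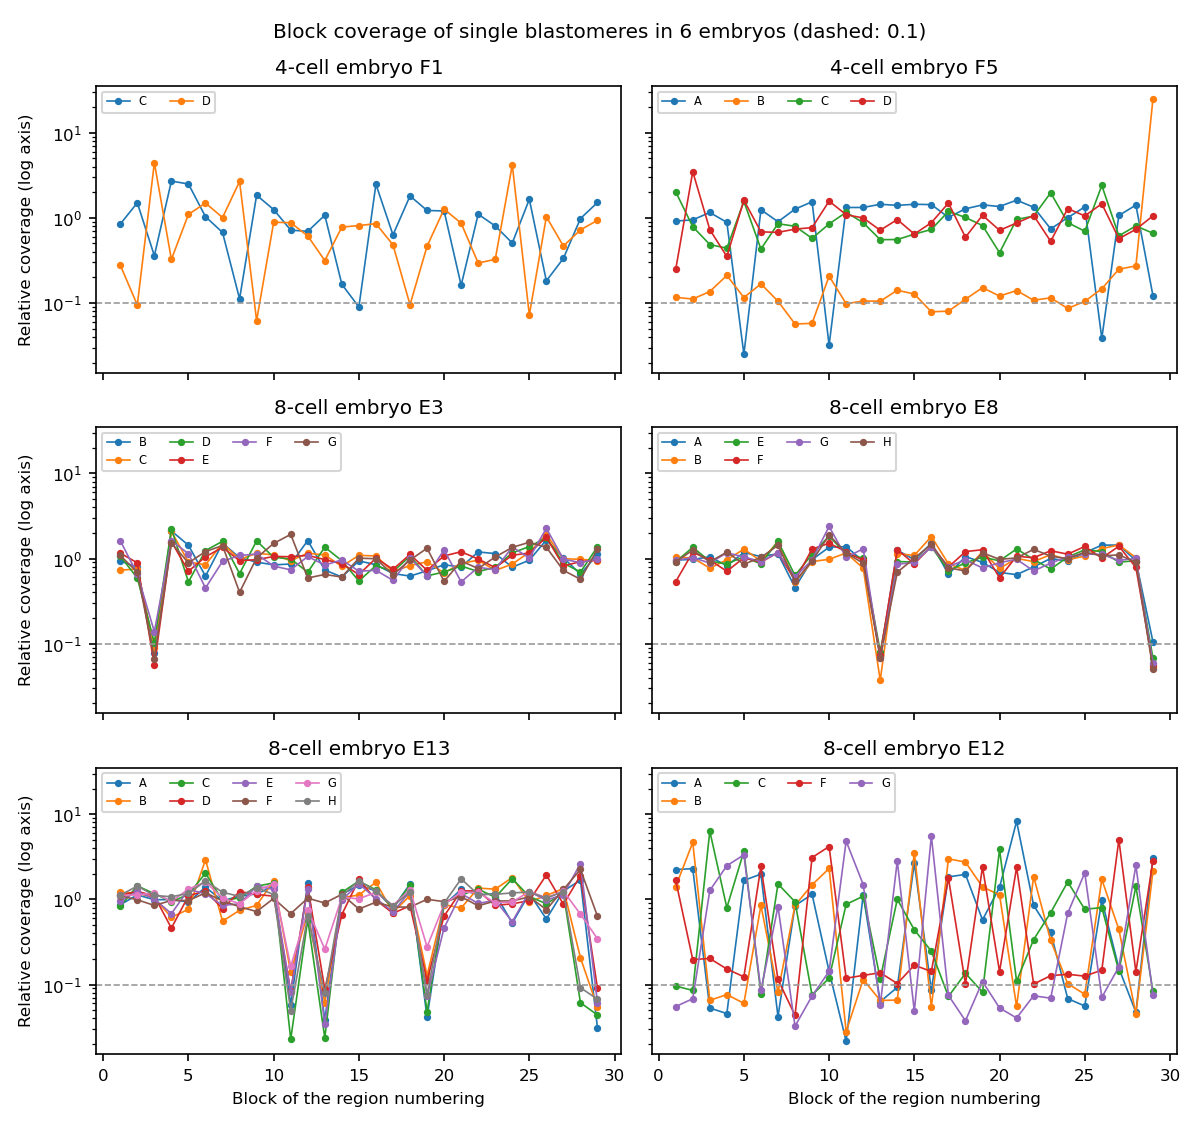
Relative coverage (log axis) of blocks 1 to 29 for each assessed blastomere of 4-cell embryos F1 and F5 and 8-cell embryos E3, E8, E13 and E12; the dashed line marks 0.1. Most lines of E3, E8 and E13 dip together in the blocks named in the text, while those of F1 and E12 cross, and F5-B rises to 24.8 in block 29.

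The likeness of sisters was summarised as the mean correlation of log2 block coverage over the pairs of an embryo. It was -0.47, 0.37, 0.024, -0.58 and -0.19 in F1 to F5, so that 3 of 5 were negative. Among 8-cell embryos 12 of 14 were positive, the highest being 0.92 in E8, 0.75 in E3 and 0.68 in E13. The negative ones were E12 at -0.16 and E10 at -0.84, the latter from 1 pair of which E10-A had 2083 block calls. The means were -0.17 ± 0.38 (SD, n = 5) and 0.29 ± 0.43 (SD, n = 14), a difference of 0.46 that did not pass after adjustment (exact permutation p = 0.0516, adjusted p = 0.180). The groups overlapped. With columns shifted by 1 title the difference was 0.31 or 0.26. F1, F2 and F4 each rest on 1 pair. Pairs from different embryos of the same stage had a mean correlation of 0.0159 over 76 4-cell pairs and 0.0933 over 3658 8-cell pairs.

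Unevenness, the embryo median of the SD of log2 coverage over blocks, was 0.738 ± 0.367 (SD, n = 5) and 0.518 ± 0.447 (SD, n = 14; exact permutation p = 0.345, adjusted p = 0.603). The highest value was at the 8-cell stage, 1.80 in E12.

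**Figure D4:**
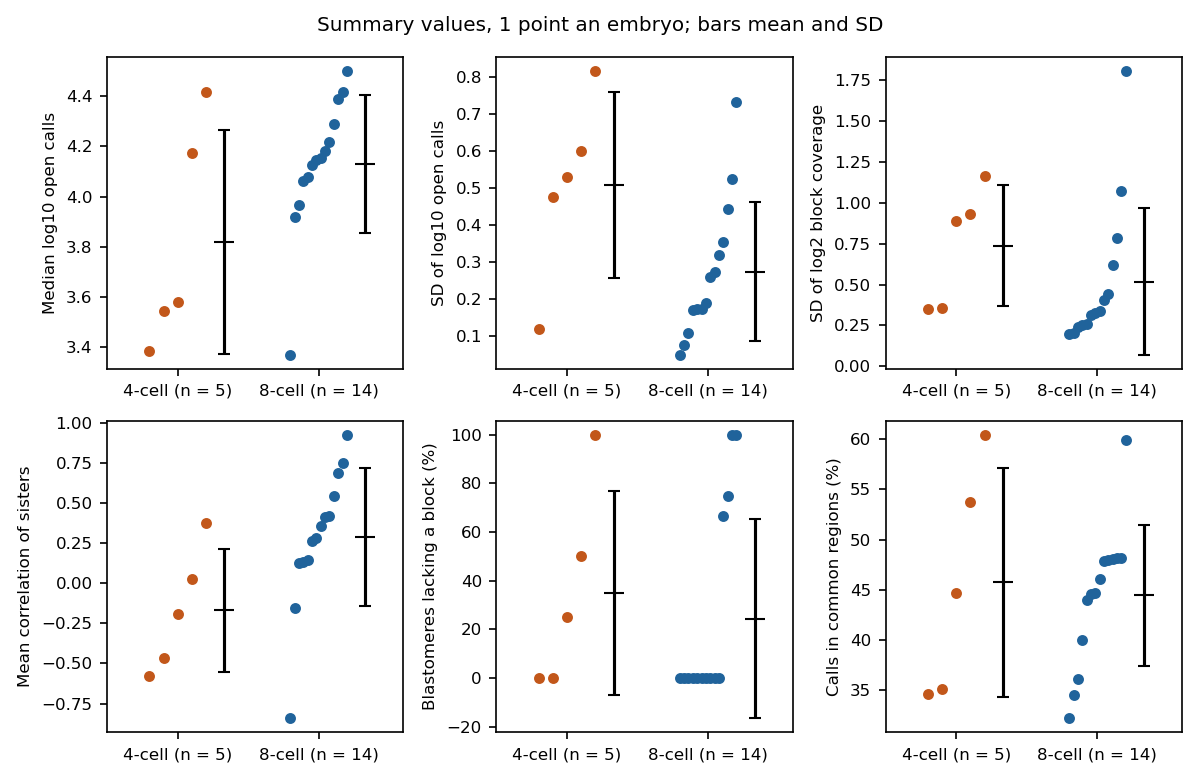
Summary values with 1 point an embryo and the mean and SD beside them; the axes give median log10 calls, SD of log10 calls, SD of log2 block coverage, mean sister correlation, percent of blastomeres lacking a block and percent of calls in commonly open regions. The groups overlap in every panel, and 3 of 5 4-cell embryos have a negative sister correlation.

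The next comparison asked whether any stretch of the numbering held more calls at one stage. The 29 blocks, the dense stretch, a mixed stretch and an end block gave 32 segments, and none passed the adjusted threshold (0% called); 7 had an unadjusted exact permutation p under 0.05, which is 21.9%. Of these, blocks 1, 7, 9, 14, 15 and 27 had the higher mean at the 8-cell and block 29 at the 4-cell stage. Block 27 had the smallest p. Its embryo means were 0.4003, 1.08, 0.972, 0.826 and 0.625 in F1 to F5 and ran from 0.906 to 1.21 in 8-cell embryos (median 1.06). The 8-cell mean was higher by 0.285 (p = 0.00482, adjusted p = 0.139, exact permutation test), with 2 4-cell embryos inside the 8-cell range. Block 15 was 0.759 ± 0.230 (n = 5) and 1.09 ± 0.230 (n = 14; SD, exact permutation p = 0.0131, adjusted p = 0.139).

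Block 29 was 2.33 ± 2.43 (SD, n = 5) at the 4-cell and 0.914 ± 0.388 (SD, n = 14) at the 8-cell stage (exact permutation p = 0.00998, adjusted p = 0.139). The height of the 4-cell mean rested largely on F5-B. Without F5-B, an alternative added after seeing the data, the 4-cell mean was 1.12 (exact permutation p = 0.327). In that alternative, 2 of the 32 segments had an unadjusted p under 0.05. It left F5 as the lowest 4-cell embryo, at 0.612, with F5-A at 0.122. With all of F5 left out, the 4-cell mean was 1.25 against 0.914 at the 8-cell stage (exact permutation p = 0.0837, adjusted p = 0.301). Without F2 block 27 passed (adjusted p = 0.0418, exact permutation test). Without blastomeres lacking a block, block 7 passed, at 0.698 in 4 4-cell and 0.962 in 12 8-cell embryos (adjusted p = 0.0176, exact permutation test), and block 27 did not (adjusted p = 0.166). With each column read as the title 1 later, block 27 passed (adjusted p = 0.0193, exact permutation test), and with the title 1 earlier no segment did (smallest adjusted p = 0.125).

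**Figure D5:**
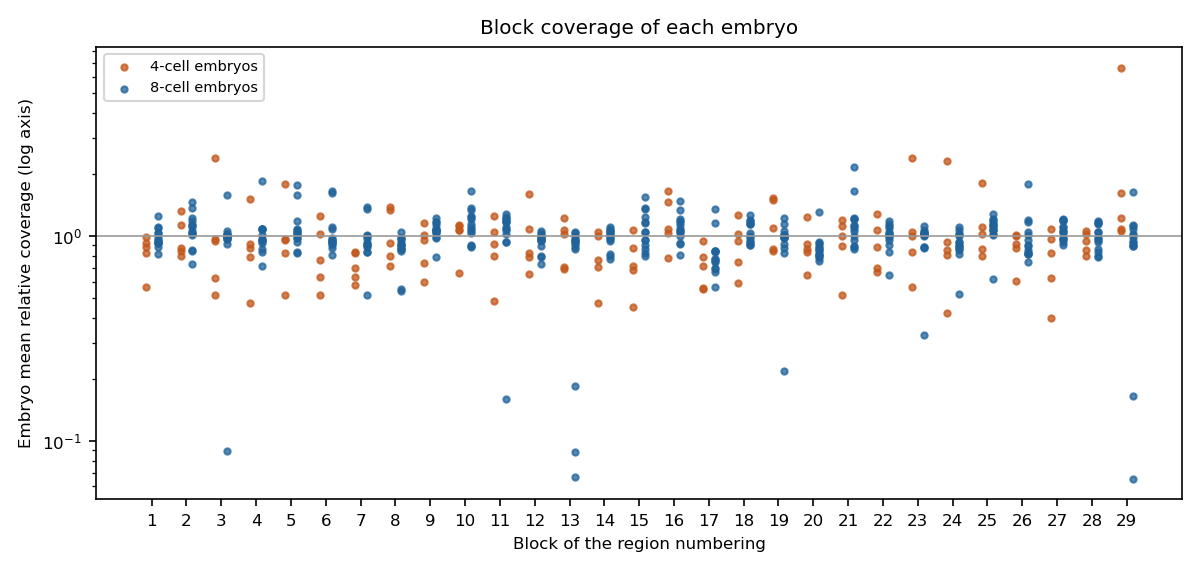
Embryo mean relative coverage (log axis) of the 29 blocks, with 1 point an embryo, orange for 4-cell and blue for 8-cell embryos. The lowest points are 8-cell embryos in blocks 3, 11, 13, 19 and 29, and the highest is F5 in block 29 at 6.66.

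Single regions were then compared through observed calls against those expected from each blastomere's depth and each region's openness. Of 235856 regions, 0 passed an adjusted p under 0.05 (0% called), and 992 had an unadjusted p under 0.05, which is 0.421%. Of those, 88.3% were lower at the 8-cell stage, and 98.2% with the score test alone. In simulated data, regions with many calls were changed and put through the same test. Of 50 lowered 16-fold at the 8-cell stage, 48 had an unadjusted p under 0.05, against 1 of 50 raised 16-fold. Only regions with many calls were changed, and these have little room to rise. The simulation therefore cannot say why most regions with small p, some with few calls, were lower. The direction of regions with small p was not read as a difference between stages. The score test alone gave 0 adjusted calls and 6273 unadjusted, and the exact binomial test alone 0 adjusted calls and 0.454% unadjusted. The smallest p was 1.5e-04, while adjustment over so many regions asks the first for 2.12e-07 or less. No changed region passed the adjusted threshold in the simulated data either, so a count of 0 does not show that no region differs. The region with the smallest p among those higher at the 8-cell stage was V76735 in block 7. It was open in 60 8-cell blastomeres of 13 embryos and 1 4-cell blastomere, against 52.3 and 8.66 expected (p = 0.00793, quasi-Poisson score test bounded by the exact binomial test). V184536 followed with 43 and 0 calls. Among those lower, V286066 in the mixed stretch was open in 0 8-cell blastomeres and in 6 4-cell blastomeres of 4 embryos, against 4.76 and 1.24 expected (p = 1.5e-04). Each of these had an adjusted p of 1.

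Bins of 100 neighbouring regions gave more calls per unit. Of 3028 bins, 0 passed in limma after adjustment (0% called) and 5.91% had an unadjusted p under 0.05. Of these bins, 80.4% were higher at the 8-cell stage. The regions with small p mostly went the other way, and the reason was not tested. With depth taken from commonly open regions, 83 bins were higher and 36 lower. A count of 0 does not show that no bin differs. The bin with the smallest p, regions 230001 to 230100 of block 26, had a log2 difference of 1.37 ± 0.37 (SE, p = 0.00116, adjusted p = 0.802, limma). The bins with small p were unevenly placed. Blocks 5, 10 and 26, picked after their values were seen because F5-A lacks them, held 39.7% of them, 71 of their 300 bins, all higher at the 8-cell stage. That is 23.7% of their bins, against 3.96% of the 2728 other bins. Without F5-A, 6 of these 300 bins had a p under 0.05 (2%), and 261 of the others (9.57%). The same bin of block 26 was then at 0.98 (p = 0.0172, adjusted p = 0.522, limma).

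Commonly open regions, the 10% of regions open in the most blastomeres of prefix 15286, took 45.7% ± 11.3 (SD, n = 5) of calls at the 4-cell and 44.5% ± 7.02 (SD, n = 14) at the 8-cell stage (exact permutation p = 0.767, adjusted p = 0.895). The percentages ran from 34.7 to 60.4 and from 32.2 to 59.9. The embryos with the highest percent at each stage, F4 and E10, were also those with the lowest median number of calls. At equal depth of 2000 calls the 8-cell mean was higher by 1.80 percentage points (exact permutation p = 0.590). Regions open in at least 50% of the blastomeres, pooled over embryos, numbered 2058 at the 4-cell and 2379 at the 8-cell stage. The 1821 in both were 88.5% of the first and 76.5% of the second. The dense stretch held 1375 of the 2058, 1318 of the 2379 and 1269 of the 1821.

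The open regions of blastomeres overlapped little, whether sisters or not. After thinning to 1000 calls, the mean Jaccard index of sisters was above that of pairs from other embryos by 0.0041 ± 0.0082 (SD, n = 5) at the 4-cell and 0.0038 ± 0.011 (SD, n = 14) at the 8-cell stage (exact permutation p = 0.962, adjusted p = 0.962). The largest excess was 0.0420, in E10, at 0.0595 among sisters against 0.0175 with other embryos. Among 4-cell embryos, F1 was at 0.0311 against 0.0152 and F4 at 0.0257 against 0.0166. F2 was at 0.0081 against 0.0071. Sisters were below other embryos in F3, at 0.0051 against 0.0066, and in F5, at 0.0044 against 0.0084. F3 and F5 had the highest 4-cell medians of calls. No pair of libraries had the overlap of a library deposited again, the highest Jaccard index before thinning being 0.267, between E10-H and E13-F.

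The 4-cell embryos of the run were also set beside 4-cell embryos of prefix 15286, a difference of library series at 1 stage. None of the 7 summary values passed after adjustment. The spread of calls was 0.508 ± 0.252 (SD, n = 5) against 0.312 ± 0.153 (SD, n = 15; exact permutation p = 0.0488, adjusted p = 0.293). The sister correlation was -0.17 ± 0.38 (SD, n = 5) against 0.22 ± 0.41 (SD, n = 14; exact permutation p = 0.0838, adjusted p = 0.293). The median log10 calls differed by -0.03 (exact permutation p = 0.897).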

How the data were processed

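The deposited table was made by the authors from single-blastomere ATAC-seq libraries; FastQC 0.10.1, Bowtie2 2.2.6 and bedtools are named, per the submitters' processing notes. The genome build, the definition of regions and the calling rule are not stated in the labels or the table. Its deposited values are only 0 or 1, taken as open calls and not as counts of reads. Column numbers minus 1500 were read as title numbers of prefix 15287, and 0 columns were left unmapped; 119 labelled libraries without a column were not analysed here.

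Embryos served as replicates, and the labels do not say whether embryos of a stage came from separate fertilisations, so p-values measure the spread between these embryos. Each summary value was compared by a two-sided exact permutation test over 11628 groupings, with Benjamini-Hochberg adjustment over 7 values (32 for segments). Calls were modelled with expected probability 1 - exp(-depth x openness). Regions open in at least 10% of embryos were tested with a quasi-Poisson score test bounded by an exact binomial test; bins of 100 regions with limma 3.58.1 in R 4.3.3 on log2((observed + 1)/(expected + 1)), for a mean expectation of at least 5. Block coverage used a pseudocount of 0.1 on the log2 scale. The tests were tested on simulated data, where after adjustment the region test recovered no changed region. The bin test recovered 51 of 100 bins raised 1.5-fold and 21 of 100 lowered 1.5-fold. The simulation put spread between embryos on single regions and none on whole blocks, so these rates may not hold for the real bins. Counts of 0 do not show absence of change. Named regions and bins are those with the smallest unadjusted p in each direction where none passed; named blocks are the 3 with the smallest p and those absent in a blastomere. The members and lists were chosen with earlier results of these data known. No sequence is shown, since regions carry no coordinates here.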

Additional observations from a re-analysis of the deposited data

Results flagged for a closer look

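Among 4-cell embryos, the mean coverage of block 29 in F5 stood apart from the others, at 6.66 against 1.63 in the next highest embryo. It was the 1 value so marked among 11 sets of 5 embryos examined, and chance marks about 1 set in 20. The value comes from blastomere F5-B, whose block 29 was at 24.8.

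Blocks were also absent in embryos of the run that entered no comparison, those labelled 2-, 5-, 6-, 7-, 13- or 16-cell. Of 69 assessed blastomeres from 15 embryos, 30 lacked at least 1 block, which is 43.5% (95% exact Clopper-Pearson interval 31.6 to 55.96%, counting error only, with sisters counted as independent). The 30 came from 9 embryos.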

How the results depend on the processing

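No paired analysis was possible because the replicate numbers are embryo numbers, which the stages do not share. No alternative gave an adjusted call for regions (15 alternatives) or bins (12); with no call to lose, these say nothing about stability. Leaving out each 4-cell embryo, the difference in calls ran from 0.201 to 0.458, in spread from -0.33 to -0.16, in percent lacking a block from -19.3 to 5.65, in commonly open regions from -4.0 to 2.39, and in similarity from -0.0013 to 0.000527; the number of segments called ran from 0 to 1. Leaving out F3 made the calls and the spread pass, and leaving out F2 made block 27 pass; the cause was not tested. Signs turned for values with no call: the percent lacking a block was 5.48 with absence set at 0.05, commonly open regions 1.80 at 2000 calls, and similarity 4.9e-05 with fuller embryos, 0.000918 and 0.00481 with the columns shifted by 1 and 0.00484 at 3000 calls. Without blastomeres lacking a block, 1 segment passed. The difference in sister correlation, 8-cell minus 4-cell, was positive in all 12 alternatives, from 0.256 to 0.592 (adjusted p from 0.126 to 0.538). Links shifted by 1 title, chosen after seeing the data except for calls and similarity, turned no other sign; 1 segment passed with the title 1 later. They were not run for regions and bins.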
